A study of Mus musculus with 4 samples.

Results

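The genes described here are 10 members of the Bcl2 family, the proteins that decide at the mitochondrion whether a cell lives or dies: the anti-apoptotic Bcl2, Bcl2l1 (Bcl-xL), Mcl1 and Bcl2a1d (A1), the BH3-only proteins Bcl2l11 (Bim), Bid, Bbc3 (Puma) and Pmaip1 (Noxa), and the effectors Bax and Bak1. Every probe set that the platform annotation ties to exactly 1 of these symbols was taken, which gave 22 probe sets of 8 genes among 22690 probe sets in the table. Bcl2a1d was read by 3 probe sets that also name its near-identical neighbours Bcl2a1a and Bcl2a1b, and 1 of them Bcl2a1c too, so it has no probe set of its own, and Bax was not named by the annotation used here and was not analysed. Of the 22 probe sets, 11 belong to anti-apoptotic members and 11 to BH3-only and effector members.

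Anti-apoptotic proteins hold the effectors Bax and Bak1 in check, BH3-only proteins bind and neutralise the anti-apoptotic ones or activate the effectors, and free effectors form pores in the outer mitochondrial membrane. In developing B cells, survival signals from cytokine receptors keep the anti-apoptotic members high, Bim removes cells that lack such signals or recognise self, and Puma and Noxa are induced by p53 after DNA damage.

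RNA came from bone marrow of Mll-AF4stop knock-in mice, whose Mll-AF4 fusion construct stays silent until Cre recombinase acts on it. All mice had received 5-fluorouracil (5-FU), which destroys dividing marrow cells, and after 5 days the marrow was exposed in culture to a Cre-GFP retrovirus (group Cre-GFP, arrays 1 and 2) or a GFP retrovirus (group control, arrays 1 and 2). Cells expressing GFP were isolated 2 days later, and 14 days of culture in cytokines for lymphoid progenitors followed. Where a pair of values is given for a group, array 1 comes before array 2. In the design text the control virus is named MIG-Cre, but the labels of the samples name a GFP control, and these were followed; if it carried Cre, the groups would not differ in activation of the fusion. By the sample labels only Cre-GFP cells received Cre, so the effect of the activated fusion and that of Cre itself cannot be told apart. Whether the arrays within a group stem from different mice or cultures is not stated, so p-values cover only the spread among these 4 arrays, which may be technical.

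Median intensities ran from 85.1 to 87.7 over the 4 arrays. Arrays of 1 group were no more alike than arrays of different groups: the SD of the log2 difference over probe sets was 0.286 between the Cre-GFP arrays and 0.31 between the control arrays, against 0.263 to 0.358 between a Cre-GFP and a control array. B lineage markers were read in both groups, with a mean log2 intensity over 15 genes of 9.62 and 9.17 on the Cre-GFP arrays, against 9.85 and 10.09 on the control arrays.

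The question put to these arrays was how survival and death genes stood in cells that had received Cre. Differences were small. Bcl2l1, which keeps lymphoid and erythroid precursors alive, was 1.51-fold lower in Cre-GFP on its brightest probe set and Bcl2l11 1.35-fold lower on its brightest. The effector Bak1 was 1.33-fold higher on the brighter of 2 probe sets, while Bcl2 differed by 1.04-fold. Averaged over all probe sets of a gene, the log2 differences were smaller: −0.24 for Bcl2l1, −0.17 for Bcl2l11 and 0.19 for Bak1. None of the 22 probe sets passed an adjusted p of 0.05 in limma, a linear model fitted to all 22626 probe sets that are not array controls, and neither did any other probe set (0.0% of the table). At an unadjusted p under 0.05, limma counted 2 of the 22, against 4.81% of all probe sets: 1 was lower in Cre-GFP (Bcl2l1, against 2.4% of all) and 1 higher (Bak1, also against 2.4%).

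Of the 22 probe sets, 18 had a lower mean in Cre-GFP and 4 a higher one, and 7 of the 8 genes were lower when their probe sets were averaged, against 49.4% of 12393 genes (6 of the 8 at the brightest probe set alone, where Mcl1 was higher). These counts carry no test, since the probe sets of a gene share its transcripts and all members share the same 4 arrays. Both Cre-GFP arrays lay below both control arrays for 6 of the 22 probe sets (27.3%), a pattern that 14.7% of all probe sets showed, and above them for 2 (9.09%), against 15.2% of all. For 21 of the 22 the 95% interval of the difference lay within 1 log2 unit of 0, that is, it left out a 2-fold change in either direction. The same held for 94.5% of all probe sets.

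**Figure D1:**
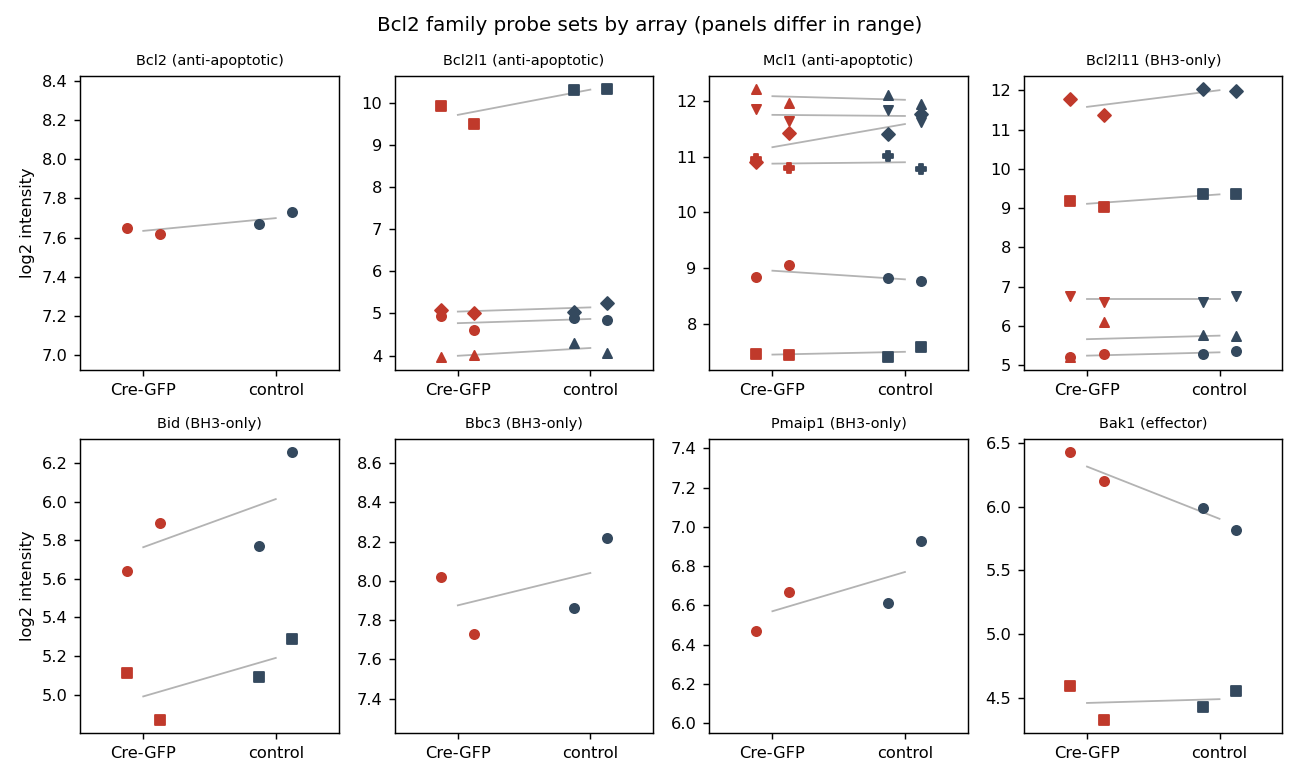
Log2 intensity of each Bcl2 family probe set on every array, 1 panel a gene, with the 2 Cre-GFP arrays (red) left of the 2 control arrays (dark), 1 marker shape a probe set and grey lines joining group means. Both Cre-GFP arrays lie below both controls for the brightest probe sets of Bcl2l1 and Bcl2l11 and above them for the brighter one of Bak1, while the Mcl1 probe sets run in different directions.

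Among the anti-apoptotic members, Bcl2l1 was read by 4 probe sets, all lower on average in Cre-GFP. The brightest, 1420888_at, read 9.93 and 9.51 (log2 intensity) on the Cre-GFP arrays, against 10.31 and 10.33 on the control arrays. The groups did not overlap, the control arrays were nearly equal, and Cre-GFP 2 was the lowest. The log2 difference was −0.60 ± 0.20 (limma's SE, n = 2 arrays per group, 95% interval −1.08 to −0.11), with an unadjusted p of 0.0238 and an adjusted p of 0.931 in limma. Leaving out Cre-GFP 2 gave −0.39 and leaving out Cre-GFP 1 gave −0.81. The other 3 probe sets read 3.97 to 5.25 on every array and differed by −0.18 to −0.093, and 1 of them, 1426050_at, lay under the 20th percentile of every array, where differences may be compressed (−0.18, or −0.29 to −0.071 with any 1 array left out). In such cultures, fewer cells of a type and less RNA per cell cannot be told apart.

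Mcl1, a short-lived protein that progenitors and B cells depend on, was read by 6 probe sets that disagreed in direction, 3 higher and 3 lower in Cre-GFP. The brightest, 1437527_x_at, read 12.21 and 11.96 on the Cre-GFP arrays, against 12.10 and 11.94 on the control arrays, for a log2 difference of 0.065 ± 0.15. The groups overlapped, as they did for 1456243_x_at (0.016) and 1456381_x_at (−0.024). Probe set 1448503_at read 10.91 and 11.43 on the Cre-GFP arrays, against 11.40 and 11.77 on the control arrays, for a log2 difference of −0.41 ± 0.23 (95% interval −0.97 to 0.15). Cre-GFP 1 lay below both control arrays and Cre-GFP 2 between them, and leaving out any 1 array gave −0.67 (Cre-GFP 2 left out) to −0.15 (Cre-GFP 1 left out). Probe set 1416880_at was the 1 member of the anti-apoptotic group with both Cre-GFP arrays above both controls, at 8.85 and 9.06 on the Cre-GFP arrays, against 8.83 and 8.77 on the control arrays. Its log2 difference was 0.15 ± 0.17, or 0.05 to 0.25 with any 1 array left out, and that of 1416881_at was −0.052. With an average over the 6 of −0.042, no direction can be given for Mcl1.

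Bcl2, the founding member, which supports mature lymphocytes, was read by 1 probe set at 7.65 and 7.62 on the Cre-GFP arrays, against 7.67 and 7.73 on the control arrays. The groups did not overlap, but the log2 difference was only −0.061 ± 0.15 (95% interval −0.43 to 0.31). The Bcl2a1 probe set above the 20th percentile, 1419004_s_at, which reads Bcl2a1a, Bcl2a1b and Bcl2a1d together, gave 6.10 and 6.08 on the Cre-GFP arrays, against 6.17 and 6.19 on the control arrays. Its log2 difference was −0.085 ± 0.11, and the other 2, both under the 20th percentile of every array, differed by −0.14 and −0.13. Which copy of the gene they report cannot be told.

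Among the BH3-only members, all 9 probe sets were lower on average in Cre-GFP, by −0.0046 to −0.43 on the log2 scale, and none passed. Bcl2l11, the gene of Bim, was read by 5 of them. The brightest, 1456005_a_at, read 11.79 and 11.37 on the Cre-GFP arrays, against 12.03 and 11.98 on the control arrays. As for Bcl2l1, the control arrays were nearly equal, the groups did not overlap and Cre-GFP 2 was the lowest. The log2 difference was −0.43 ± 0.18 (95% interval −0.86 to 0.01, adjusted p = 1.0 in limma), and leaving out Cre-GFP 2 gave −0.22 and Cre-GFP 1 −0.64. A second probe set, 1435448_at, read 9.18 and 9.04 in Cre-GFP 1 and 2 and 9.35 on both control arrays, for a log2 difference of −0.24 ± 0.17. The remaining 3 differed by −0.087 to −0.0046, and 1435449_at read 5.21 and 6.11 on the 2 Cre-GFP arrays, on either side of the controls at 5.76 and 5.74. Both Cre-GFP arrays lay below both controls on 3 of the 5, the brightest, 1435448_at and the dim 1426334_a_at, a pattern of 14.7% of all probe sets.

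Bcl2l11 and Bcl2l1, whose proteins act against each other, had the largest differences to the lower side among the genes' brightest probe sets, and their promoter windows are shown for that reason. The sequences are RefSeq's (GRCm38.p6), run 5′ to 3′ from 250 bases before to 50 bases after an annotated start, and are the most upstream of 3 windows for Bcl2l1 (chr2:152831679-152831978, minus strand) and of 2 for Bcl2l11 (chr2:128125788-128126087, plus strand). Capitals mark matches, on either strand, to a GC box (GGGCGG), a Foxo site (GTAAACA) or an Ets core (CCGGAA).
Bcl2l1: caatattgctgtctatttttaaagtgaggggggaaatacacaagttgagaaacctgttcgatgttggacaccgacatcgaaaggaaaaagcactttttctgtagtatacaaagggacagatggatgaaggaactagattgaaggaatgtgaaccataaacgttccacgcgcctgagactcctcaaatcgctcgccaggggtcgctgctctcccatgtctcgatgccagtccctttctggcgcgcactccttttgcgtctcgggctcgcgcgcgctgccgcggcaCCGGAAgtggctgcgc
Bcl2l11: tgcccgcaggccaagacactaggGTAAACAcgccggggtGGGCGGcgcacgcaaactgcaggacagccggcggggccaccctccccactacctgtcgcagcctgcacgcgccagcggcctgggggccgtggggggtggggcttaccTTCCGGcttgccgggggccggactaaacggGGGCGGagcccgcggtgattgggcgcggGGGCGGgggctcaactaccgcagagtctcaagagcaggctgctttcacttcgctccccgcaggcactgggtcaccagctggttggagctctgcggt
The Bcl2l11 window held 3 GC boxes, 1 Foxo match at 227 bases before the start and 1 Ets core, and the Bcl2l1 window 1 Ets core at 34 bases past the start. GC boxes lay in 35.7%, Ets cores in 14.9% and Foxo matches in 3.65% of all 32851 windows of that length in the table. A STAT site (TTCNNNGAA), an AP-1 site (TGANTCA), an E-box (CACGTG) and the p53 half-site were also searched, were found in 8.30%, 7.81%, 7.15% and 8.36% of all windows, and were in neither of the printed ones. No match overlapped another motif. Such matches describe letters only.

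Bid, which links death receptors to mitochondria once caspase-8 cuts it, was read by 2 probe sets. The brighter, 1417045_at, read 5.64 and 5.89 on the Cre-GFP arrays, against 5.77 and 6.26 on the control arrays, for a log2 difference of −0.26 ± 0.19. The groups overlapped, with control 2 alone above the other 3 arrays, and without control 2 the difference was −0.012. The dimmer one differed by −0.19 ± 0.13, and by −0.31 to −0.073 with any 1 array left out.

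Bbc3 and Pmaip1, the p53-induced members, had 1 probe set each, and their groups overlapped. Bbc3 read 8.02 and 7.73 on the Cre-GFP arrays, against 7.86 and 8.22 on the control arrays, for a log2 difference of −0.17 ± 0.20 (95% interval −0.67 to 0.33). Pmaip1 read 6.47 and 6.67 on the Cre-GFP arrays, against 6.61 and 6.93 on the control arrays, for a log2 difference of −0.20 ± 0.17 (95% interval −0.62 to 0.21). In both genes control 2 was the highest array, and without it the differences were 0.013 and −0.044.

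The effector Bak1 was the 1 member gene with a higher average in Cre-GFP. Its brighter probe set, 1418991_at, read 6.43 and 6.20 on the Cre-GFP arrays, against 5.99 and 5.82 on the control arrays. The groups did not overlap, and the log2 difference was 0.41 ± 0.14 (95% interval 0.06 to 0.76), with an unadjusted p of 0.0279 and an adjusted p of 0.948 in limma. Leaving out any 1 array gave 0.29 to 0.53. The other probe set, 1425716_s_at, under the 20th percentile of every array, differed by −0.032 ± 0.12.

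**Figure D2:**
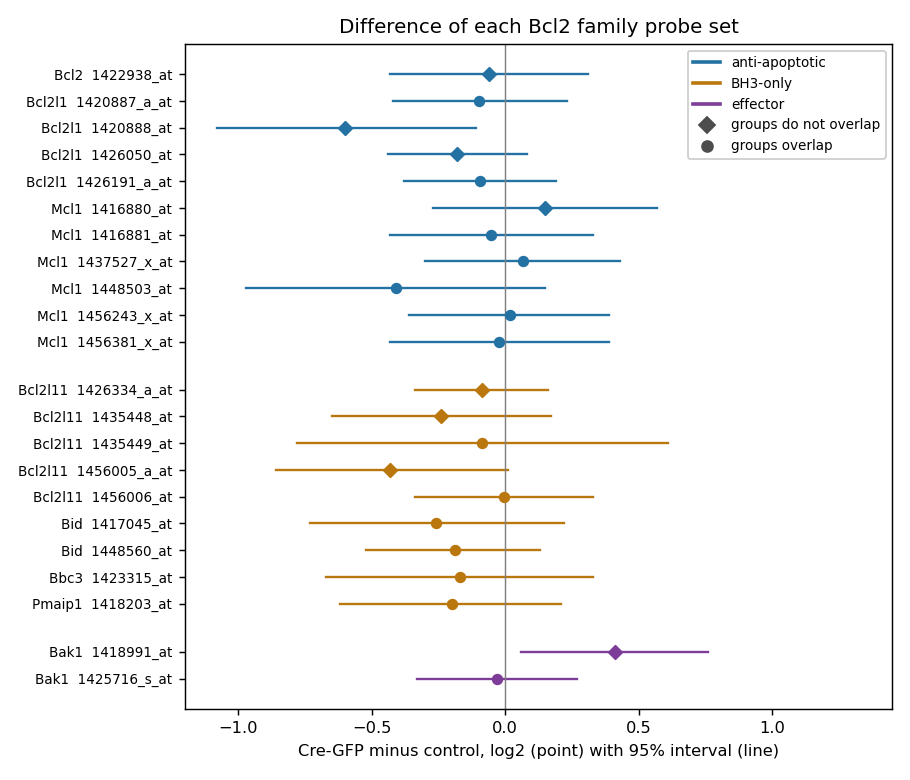
Log2 difference, Cre-GFP minus control, of each of the 22 probe sets with its 95% interval from limma, coloured by role; diamonds mark groups that do not overlap. The intervals of 2 probe sets leave out 0, Bcl2l1 1420888_at below it and Bak1 1418991_at above it.

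Set against each other, anti-apoptotic members had a median log2 difference of −0.061 over 3 genes and BH3-only and effector members −0.17 over 5 genes, each gene at the mean of its probe sets, beside a median of 0.002 over all genes. The gap of 0.11 was smaller than its own spread between arrays of a group (SD 0.15), and it was 0.26 without control 1 and −0.0082 without control 2. The medians themselves had an SD between arrays of a group of 0.018 for anti-apoptotic and 0.16 for the other members, from 2 arrays per group. The anti-apoptotic median of −0.061 is the value of Bcl2, the middle of 3 genes. It rests on 1 probe set, whose SE in limma was 0.15. In each group 3 of 11 probe sets (27.3%) had both Cre-GFP arrays below both controls and 1 of 11 (9.09%) above, against 14.7% and 15.2% of all probe sets. Among anti-apoptotic members, gene averages ran from −0.24 for Bcl2l1 to −0.042 for Mcl1. Among the others, the BH3-only genes ran from −0.23 for Bid to −0.17 for Bcl2l11 and Bbc3. Without control 2 they spread out, at −0.053 for Bid, 0.013 for Bbc3, −0.044 for Pmaip1 and −0.16 for Bcl2l11. Only the effector Bak1 was higher, at 0.19, the average of 0.41 and −0.032 on its 2 probe sets. With any 1 array left out this average ran from 0.065 to 0.31.

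Means of the B lineage and myeloid marker lists also differed between the groups, for the neutrophil list through control 1 alone. No marker gene passed in limma, but neither did any other probe set. At an unadjusted p under 0.05 in either direction, limma counted 6 of 15 B lineage genes, against 4.81% of all probe sets. It also counted 3 of 14 monocyte and macrophage genes and 4 of 12 neutrophil and granule genes. Of 15 B lineage genes measured, 12 were lower in Cre-GFP. Both Cre-GFP arrays lay below both controls for 9 of them and above for 1, beside 14.7% and 15.2% of all probe sets. The list's mean was lowest in Cre-GFP 2, where the brightest probe sets of Bcl2l1 and Bcl2l11 were lowest as well. Other probe sets of these 2 genes, Bcl2l1 1426050_at and Bcl2l11 1426334_a_at and 1435449_at, were lowest in Cre-GFP 1. Of 14 monocyte and macrophage genes 11 were higher (4 with both Cre-GFP arrays above both controls, 1 with both below), with a mean log2 intensity of 7.07 and 6.78 on the Cre-GFP arrays, against 6.41 and 6.72 on the control arrays. Of 12 neutrophil and granule genes 8 were higher (4 with both Cre-GFP arrays above both controls, 2 with both below), with means of 7.39 and 7.41 on the Cre-GFP arrays, against 6.71 and 7.42 on the control arrays. Under the 20th percentile of every array lay 0 of the 15 B lineage genes, 0 of the 12 neutrophil genes and 3 of the 14 monocyte genes (Itgam, Cd36 and C1qb). The part of these cell types in the differences of Bcl2l1, Bcl2l11 and Bak1 was not tested.

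**Figure D3:**
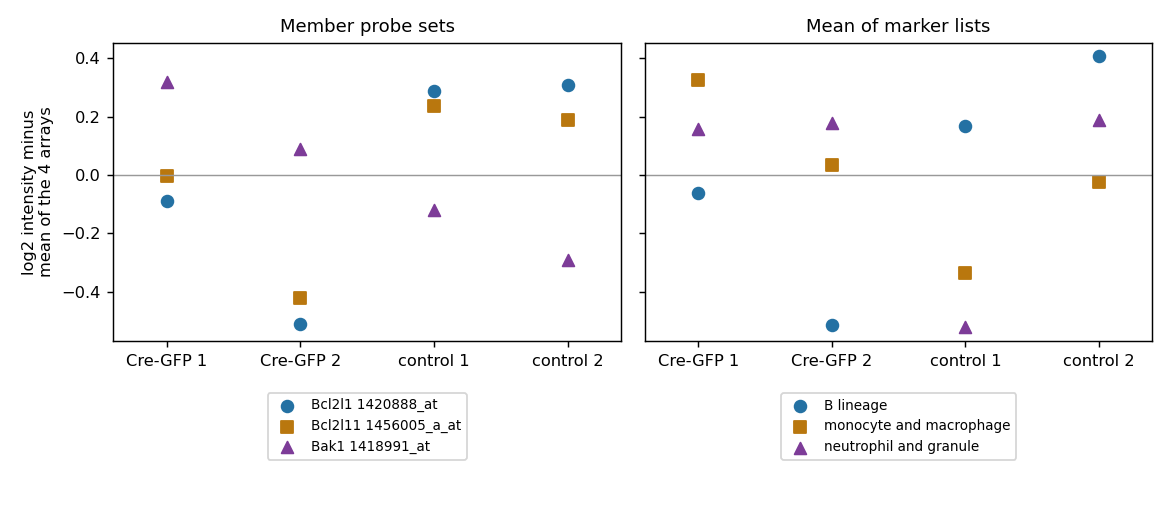
Log2 intensity minus the mean of the 4 arrays, by array, for the probe sets of Bcl2l1, Bcl2l11 and Bak1 with the largest differences (left) and for the mean of 3 marker lists (right). Cre-GFP 2 is lowest for Bcl2l1, Bcl2l11 and the B lineage list, and control 1 is lowest for both myeloid lists.

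The wider death pathway was read through 8 lists of 71 genes, of which 61 were measured, each at its brightest probe set. None passed in either direction. In Cre-GFP 38 were higher and 23 lower, beside 6213 higher and 6180 lower of all 12393 genes. The median log2 difference was 0.034 beside 0.0 over all genes. Both Cre-GFP arrays lay above both controls for 11 of the 61 (18.0%, against 15.2% of all probe sets) and below them for 7 (11.5%, against 14.7%), shares near those of the whole table.

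The other anti-apoptotic relatives were flat or dim: Bcl2l2 (Bcl-w) differed by 0.016 ± 0.13 on the log2 scale and Bcl2l10, under the 20th percentile on every array, by 0.30 ± 0.12. Of 5 further BH3-only and effector genes, Bmf, a BH3-only protein linked to the cytoskeleton, differed by 0.16 ± 0.10 and Hrk by −0.029 ± 0.14. Bnip3, a mitochondrial protein of hypoxia and mitophagy, read 7.83 and 8.18 on the Cre-GFP arrays, against 8.50 and 8.63 on the control arrays. Its groups did not overlap, and its log2 difference of −0.56 ± 0.19 (adjusted p = 0.932 in limma) was the 1 in the pathway lists with an unadjusted p under 0.05. Bcl2l15, a dim gene of the same list, differed by −0.13 ± 0.09.

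Downstream of the mitochondrion, 8 of 9 apoptosome and caspase genes were higher in Cre-GFP (median log2 difference 0.094). Casp6, an executioner caspase, read 8.12 and 8.95 on the Cre-GFP arrays, against 7.51 and 8.05 on the control arrays. Its groups did not overlap, but the Cre-GFP arrays stood farther apart than the group means did, and the log2 difference was 0.76 ± 0.33 (95% interval −0.05 to 1.56). Casp9, the caspase that the apoptosome activates, differed by 0.37 ± 0.19 and by −0.02 on its other probe set. Of the released mitochondrial factors and pores, 7 of 9 were higher (median 0.074), with the protease Htra2 at 0.23 ± 0.16 and the fission GTPase Dnm1l at 0.28 ± 0.24.

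Of the inhibitors of apoptosis, 4 of 6 were lower (median −0.144). Birc5 (survivin), also a mitotic protein, differed by −0.28 ± 0.19, with groups that did not overlap. Birc3 differed by −0.31 ± 0.26, but its groups overlapped. For Birc3, as for Birc2, control 2 alone lay above every other array. Over all their probe sets, Birc6 ran from −0.08 to 0.33 and Xiap from −0.13 to 0.49. Death receptors and adaptors split 3 higher and 4 lower, with the receptor Tnfrsf1a at 0.29 ± 0.16 and the adaptor Tradd at −0.27 ± 0.19. Among regulators of the family 13 of the 17 measured were higher (median 0.035), and Trp53 (p53) and Nfkb1 were not measured. Foxo1, a transcription factor that activates Bim, differed by −0.40 ± 0.20 on its brightest of 4 probe sets and by up to 0.07 on the others, and Stat5b, the cytokine-activated factor that induces Bcl2l1, differed by 0.24 ± 0.15, with 0.0 on its other probe set. None of these passed.

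**Figure D4:**
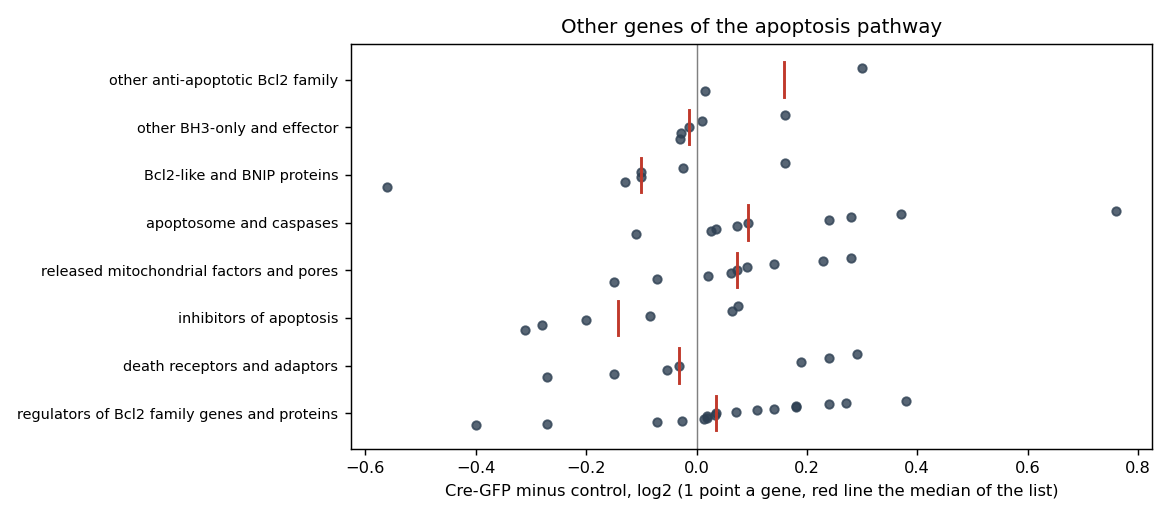
Log2 difference, Cre-GFP minus control, of the 61 measured genes of 8 pathway lists, 1 point a gene at its brightest probe set, with the median of each list as a red line. The medians lie between −0.144 for inhibitors of apoptosis and 0.159 for the other anti-apoptotic genes, and Casp6 and Bnip3 lie farthest out. The 0.159 rests on 2 measured genes, of which Bcl2l10 lies under the 20th percentile of every array.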

How the data were processed

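Affymetrix mouse arrays measured total RNA of 4 samples, 2 Cre-GFP and 2 control, after amplification of 20 ng with a NuGen Ovation kit, per the labels' protocols. The values the authors deposited are intensities per probe set, not log-transformed, and were computed with RMA per the submitters' processing notes, with no version stated there. RMA normally equalizes arrays by quantiles and compresses differences of dim probe sets.

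Each intensity was put on the log2 scale. The 64 control probe sets were left out and the other 22626 compared with limma 3.58.1 in R 4.3.3 (intensity trend, two-sided, Benjamini-Hochberg over all 22626, threshold 0.05). Genes were named through the platform annotation: 20380 tested probe sets had 1 symbol, 691 several and 1555 none. The median 95% interval reached 0.368 log2 to either side, a precision set by the small number of arrays. Promoter windows were used for 9 of the 10 genes, all but Pmaip1, after windows on 1 chromosome were left out by choice. The procedure was also run on simulated data, with shifts larger than any member difference here. That run does not bear on differences of the size reported. No scanner files were used, so scan batches were not tested.

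The members and lists were chosen with earlier results of these data known. Named genes were all members and, in each pathway list, the 2 genes with the smallest unadjusted p. Alternatives varied the fit, the level (1 or the mean of a gene's probe sets), dim probe sets, normalization, shared probe sets, a replicate block and single arrays.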

Additional observations from a re-analysis of the deposited data

How the results depend on the processing

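In all 13 alternatives 0 member probe sets passed, and the smallest adjusted p of a member in limma was 0.577, against 0.931 in the analysis as reported. With all probe sets counted, 14 passed with dim values raised to the 20th percentile, and 0 to 26 when single arrays were left out, the highest without control 1; the cause was not tested. With the replicate number as a block, 0 probe sets passed. The medians stayed at −0.061 and −0.17, as they must, since each group holds both replicate numbers. The deviations of same-numbered arrays correlated at 0.365 over probe sets. With 2 pairs this does not show that the numbers pair the samples. The median of the anti-apoptotic members was −0.10 without probe sets marked _s_at, _x_at or _a_at and ran from −0.091 to −0.047 without single arrays, that of BH3-only and effector members from −0.35 to −0.044, and the gap between them from −0.0082 to 0.26. With each single array left out in turn, 12 of the 22 member probe sets kept their sign. The intensity trend, the block and the choice of probe sets cannot change the difference of a probe set. The 238 recomputed probe set differences therefore include many that could not change sign. Of these 238, 15 changed sign, all when single arrays were left out, and they belong to the remaining probe sets. Their ranges over single arrays left out were −0.26 to 0.064 for Bcl2l1 1420887_a_at, −0.20 to 0.01 for Bcl2l1 1426191_a_at, −0.14 to 0.035 for Mcl1 1416881_at, −0.061 to 0.19 for Mcl1 1437527_x_at, −0.092 to 0.12 for Mcl1 1456243_x_at, −0.14 to 0.095 for Mcl1 1456381_x_at, −0.54 to 0.37 for Bcl2l11 1435449_at, −0.069 to 0.06 for Bcl2l11 1456006_at, −0.35 to 0.013 for Bbc3 and −0.16 to 0.10 for Bak1 1425716_s_at. With the brightest probe set alone in place of a gene's average, Mcl1 stood at 0.065, Bcl2l1 at −0.60, Bcl2l11 at −0.43 and Bak1 at 0.41. A lone array left in a group is assumed to vary like the other group.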

Other observations

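The other marker lists showed little. The mean log2 intensity of 9 T and NK cell genes was 6.23 and 6.20 on the Cre-GFP arrays, against 6.24 and 6.14 on the control arrays, with a median log2 difference of 0.005. For 5 erythroid genes the median was −0.041 and for 7 mast cell and basophil genes 0.078. None of these genes passed in limma, and neither did any other probe set. At an unadjusted p under 0.05, limma counted 1 of the 7 mast cell and basophil genes and 0 of the T, NK and erythroid genes.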
